A study of Mus musculus with 6 samples.

Results

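Fkbp5, Zbtb16 and Tsc22d3 are genes that glucocorticoids induce in many tissues, and their hepatic mRNA levels were followed here in mice given the farnesoid X receptor (FXR) agonist GW4064. A symbol was known for 87 genes of the series, those of the probe sets in a table deposited by the authors, and every probe set whose symbol there was exactly Fkbp5, Zbtb16 or Tsc22d3 was taken. This gave 3 genes and 4 probe sets (1 for Fkbp5, 2 for Zbtb16, 1 for Tsc22d3). The probe sets of Zbtb16 are called x_at (1419874_x_at) and at (1427638_at) after the ends of their identifiers. That table holds only probe sets past a fold and p threshold in the same comparison on the same arrays. A difference between the groups was therefore built into the choice of the 4 probe sets, and the differences below are given as descriptions.

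The mice were adult wild type C57BL/6J animals, 3 given GW4064 at 100 mg per kg body weight and 3 given vehicle, with 1 array for the liver of each. Both groups were dosed 3 times (8 am, 6 pm and again at 8 am the next morning), fasted overnight from the second dose per the methods, and killed 2 hours after the last dose, so fasting was common to treated and control animals. Values are the deposited log2 expression levels, and differences are GW4064 minus vehicle on that scale with the standard error (SE) from limma, fitted over all 22626 probe sets other than controls. The array medians lay between 5.87 and 5.89. The root mean square distance of an array from the vehicle mean was 0.346, 0.239 and 0.184 for GW4064 replicates 1, 2 and 3 and 0.132 to 0.140 for the vehicle arrays. Of 16 hepatocyte genes, 6 had a named probe set (Cyp8b1, Saa4, Scp2, Csad, Igfbp1 and Cyp4a12a), with group means between 8.56 and 12.81 where the median probe set was at 5.88. Of these 6, 5 had a lower mean in GW4064 livers and 1, Saa4, a higher mean, with a median difference of -1.08. They too were named through the selected table, and the list of 16 was drawn up with earlier results of these data known. The other 10, albumin among them, could not be read.

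Glucocorticoids, which in the mouse are mainly corticosterone, act through the glucocorticoid receptor. This nuclear receptor is held ready for hormone by a chaperone complex built on Hsp90. With hormone bound it enters the nucleus and switches on genes through glucocorticoid response elements, palindromes of a short repeated motif. Glucocorticoids follow a daily rhythm, rise with fasting and stress, and in the liver drive gluconeogenesis. The products of the 3 genes act at different points of this response. Fkbp5 encodes FKBP51, a cochaperone on Hsp90 that lowers the hormone affinity of the receptor, so that its induction closes a feedback loop. Zbtb16 encodes PLZF, a zinc finger transcriptional repressor. Tsc22d3 encodes GILZ, the glucocorticoid-induced leucine zipper protein, which binds NF-kappaB and AP-1 proteins and is known as an anti-inflammatory mediator.

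Per RefSeq (GRCm38.p6), Fkbp5 lies at chr17:28398753-28486149, Zbtb16 at chr9:48651797-48836225 and Tsc22d3 at chrX:140539528-140600522. The 3 genes share a regulator by repute. The sequence around the starts of Fkbp5 and Tsc22d3 was therefore searched on both strands for the motif bound by the receptor, TGTTCT. No promoter window was at hand for Zbtb16, which was not searched. RefSeq promoter windows, from 250 bases before to 50 bases after a start, were at hand for Fkbp5 (1 window) and for Tsc22d3 (3 windows, for 3 alternative starts). This receptor motif was present in 1 of these 4 windows and in 19% of all 32851 windows. It lay in the window of the Tsc22d3 start farthest upstream, with its first base 185 bases before the start. The full palindrome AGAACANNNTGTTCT, of which TGTTCT is 1 arm, was in 0 of the 4 and in 3 of the 32851 windows, and the inverted repeat bound by FXR, written AGGTCANTGACCT, likewise in 0 and in 3. These matches are descriptions of the letters in short windows and do not locate binding. The window of Fkbp5 and the Tsc22d3 window with the match are shown so that the presence and absence of the receptor motif can be read directly. Both are 5′ to 3′ on the minus strand, and capitals mark the receptor motif.
Fkbp5, chr17:28486100-28486399: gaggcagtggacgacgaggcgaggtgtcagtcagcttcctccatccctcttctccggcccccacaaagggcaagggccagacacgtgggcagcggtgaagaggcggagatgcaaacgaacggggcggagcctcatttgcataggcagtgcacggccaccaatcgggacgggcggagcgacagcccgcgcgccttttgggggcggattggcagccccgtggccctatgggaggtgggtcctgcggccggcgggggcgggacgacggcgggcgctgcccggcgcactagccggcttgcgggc
Tsc22d3, chrX:140600473-140600772: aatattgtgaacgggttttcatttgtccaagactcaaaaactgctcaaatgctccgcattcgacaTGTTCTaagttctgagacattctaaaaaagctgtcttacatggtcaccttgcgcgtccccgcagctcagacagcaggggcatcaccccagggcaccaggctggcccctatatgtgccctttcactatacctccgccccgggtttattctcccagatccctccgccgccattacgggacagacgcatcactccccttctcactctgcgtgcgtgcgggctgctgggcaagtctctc

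The response of each gene to GW4064 was examined first. All 4 probe sets had a higher mean in GW4064 than in vehicle livers, by 1.51-fold to 2.94-fold, and 0 of the 4 passed an adjusted p under 0.05 by limma. By that rule 0 of 22626 probe sets (0.00%) were called. Before adjustment 1985 probe sets had a p under 0.05 by limma and 1427 by the methods' t-test, which also left 0 after adjustment. At 1.5-fold higher with an unadjusted p under 0.05 by limma, all 4 were counted, against 0.632% of all probe sets. Nothing can be read from this because the probe sets were chosen on the same contrast.

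**Figure D1:**
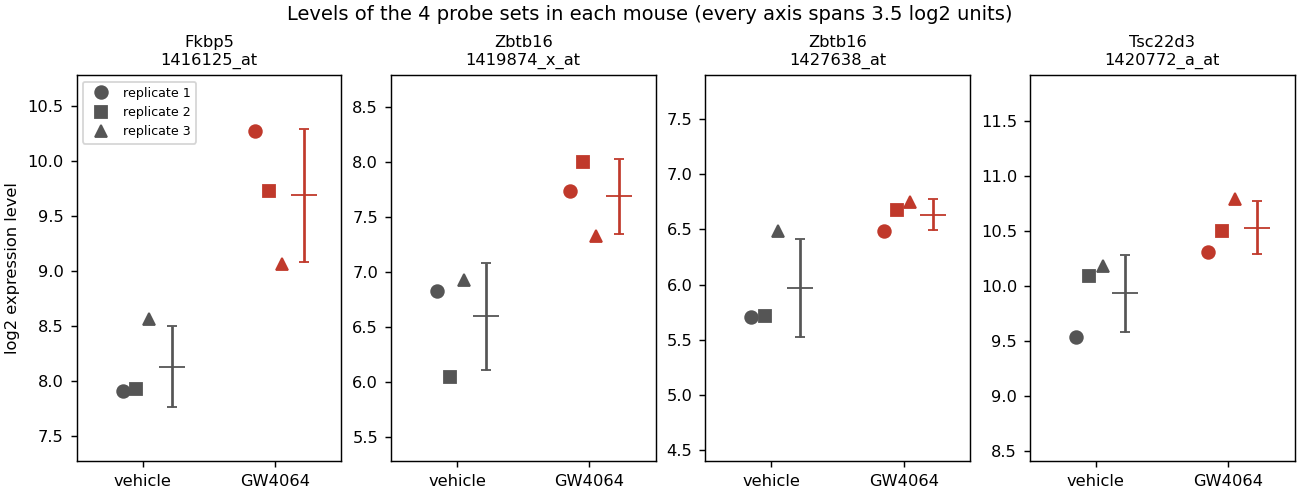
Log2 expression level (y) of each probe set in the 3 vehicle (grey) and 3 GW4064 (red) mice, with marker shapes for the replicates and the group mean ± SD (n = 3) beside them. Every panel spans the same range of log2 units. The groups were apart for Fkbp5, Zbtb16 x_at and Tsc22d3, and touched for Zbtb16 at, where vehicle replicate 3 and GW4064 replicate 1 were both at 6.48.

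Fkbp5, the cochaperone gene, had the largest difference. Its probe set (1416125_at) was at 7.91, 7.93 and 8.56 in vehicle replicates 1, 2 and 3 and at 10.27, 9.72 and 9.07 in GW4064 replicates 1, 2 and 3. The groups did not overlap, and the lowest GW4064 mouse was 0.51 above the highest vehicle mouse. The means were 8.13 ± 0.37 and 9.69 ± 0.60 (SD, n = 3 each), a difference of 1.55 (SE 0.30, 95% interval 0.88 to 2.23) or 2.94-fold. By limma the unadjusted p was 0.00072 and the adjusted p 0.417. This was the 28th largest positive difference of all probe sets. The GW4064 mice were spread over 1.20 log2 units, and the SD of Fkbp5 in the GW4064 group exceeded that of 98.8% of probe sets.

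Zbtb16, the repressor gene, was read by 2 probe sets, which did not give the same picture. The x_at probe set was at 6.83, 6.04 and 6.92 in vehicle replicates 1, 2 and 3 and at 7.74, 8.00 and 7.33 in GW4064 replicates 1, 2 and 3. Here the groups did not overlap, and vehicle replicate 2 stood below the other vehicle mice. The means were 6.60 ± 0.48 and 7.69 ± 0.34 (n = 3 each), a difference of 1.09 (SE 0.25, 95% interval 0.51 to 1.66) or 2.13-fold with an adjusted p by limma of 0.463. The suffix _x_at marks probes that may also bind transcripts of other genes, so the identity of this signal is less certain.

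The at probe set of Zbtb16, which carries no such suffix, was at 5.71, 5.71 and 6.48 in vehicle and at 6.48, 6.67 and 6.75 in GW4064 replicates 1, 2 and 3. Vehicle replicate 3 reached the level of GW4064 replicate 1, so the groups overlapped by less than 0.01. The means were 5.97 ± 0.45 and 6.64 ± 0.14 (n = 3 each), a difference of 0.67 (SE 0.20, 95% interval 0.20 to 1.13) or 1.59-fold with an adjusted p by limma of 0.512. The spread was in the vehicle group, where the SD exceeded that of 98.8% of probe sets, whereas in the GW4064 group it exceeded that of 61.6%. Without vehicle replicate 3 the difference was 0.92 (SE 0.11), and the adjusted p was 0.492.

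Tsc22d3, the gene of the leucine zipper protein, had the smallest difference. Its probe set 1420772_a_at, whose suffix marks probes shared by several transcripts of 1 gene, was at 9.53, 10.09 and 10.18 in vehicle replicates 1, 2 and 3. It was at 10.30, 10.49 and 10.78 in GW4064 replicates 1, 2 and 3. The groups did not overlap, but the gap between the highest vehicle and the lowest GW4064 mouse was only 0.13. The means were 9.93 ± 0.35 and 10.53 ± 0.24 (n = 3 each), a difference of 0.59 (SE 0.19, 95% interval 0.17 to 1.02) or 1.51-fold, with an adjusted p by limma of 0.528. By the methods' t-test the unadjusted p was 0.0718 for Tsc22d3 and 0.0683 for Zbtb16 at, against 0.019 for Fkbp5 and 0.0332 for Zbtb16 x_at.

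GW4064 was higher without overlap for 3 of the 4 probe sets, and for 6.70% of all probe sets. The exact two-sided permutation test over the 6 mice gave p = 0.1 for these 3 and p = 0.2 for Zbtb16 at. For 3 against 3 mice, 0.1 is the smallest p possible. Neither the count nor these p-values can be read as evidence, because the probe sets were chosen on the same contrast. In a whole liver, more cells that express a gene and more RNA of it per cell cannot be told apart.

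**Figure D2:**
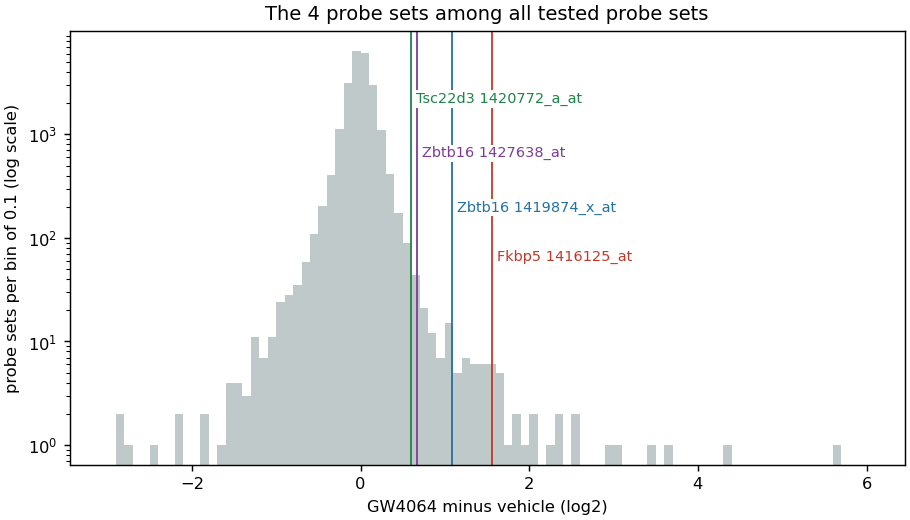
Number of probe sets (y, log scale) by difference GW4064 minus vehicle (x, log2, bins of 0.1) for all 22626 tested probe sets, with vertical lines at the 4 probe sets. Fkbp5 at 1.55 lay far out in the upper tail, and Zbtb16 at at 0.67 and Tsc22d3 at 0.59 lay nearer the bulk.

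Whether the probe sets differed in the size of their response was asked within mice. For each of the 6 pairs of probe sets, the gap between both was taken in each mouse and compared between the groups by the exact two-sided permutation test. By this exact test the difference of Fkbp5 exceeded that of Tsc22d3 by 0.96 (p = 0.3), that of Zbtb16 at by 0.89 (p = 0.1) and that of Zbtb16 x_at by 0.46 (p = 0.4). After adjustment over the 6 pairs the smallest p was 0.48. A p of 0.1 is the smallest that 3 against 3 mice allow, so no pair could have passed a threshold of 0.05. The test therefore cannot decide whether the responses differed in size. All 4 probe sets were also chosen on the same contrast, so the relative sizes are descriptions. The gap between Fkbp5 and Zbtb16 at was 2.20, 2.22 and 2.08 in vehicle and 3.79, 3.05 and 2.32 in GW4064 replicates 1, 2 and 3, without overlap, and in the other 5 pairs the gaps of both groups overlapped.

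The probe sets of Zbtb16 were compared in the same way. The x_at probe set read above the at probe set by 1.12, 0.33 and 0.44 in vehicle replicates 1, 2 and 3 and by 1.26, 1.33 and 0.58 in GW4064 replicates 1, 2 and 3. The gap itself depends on how strongly each probe set binds, and only its change can be read. Its means were 0.63 ± 0.43 and 1.05 ± 0.41 (n = 3 each), a change of 0.42 with overlapping groups (exact permutation test, two-sided, p = 0.2, and 0.48 after adjustment over the 6 pairs). The probe sets also placed single mice differently. Vehicle replicate 1 was high by x_at and low by at, and GW4064 replicate 3 was the lowest treated mouse by the former and the highest by the latter. By at, however, GW4064 replicates 2 and 3 were close, at 6.67 and 6.75.

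**Figure D3:**
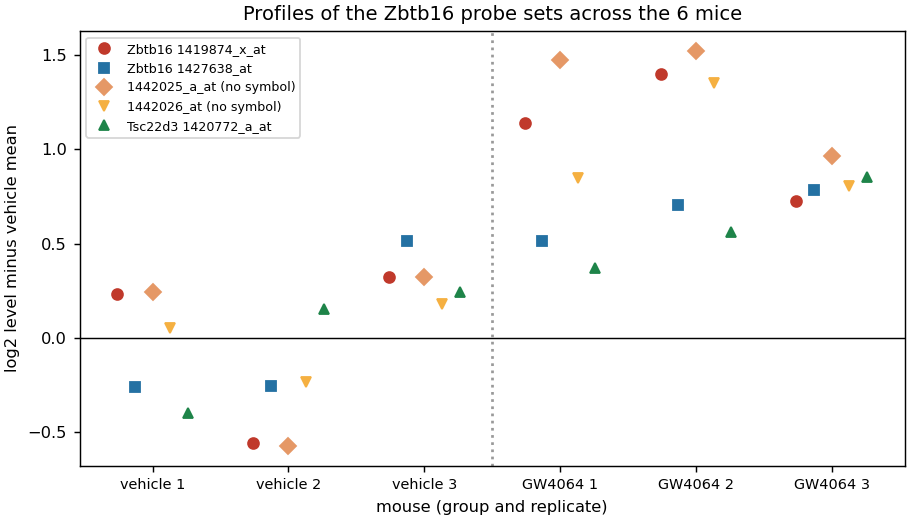
Log2 level minus the vehicle mean (y) in each of the 6 mice (x) for both Zbtb16 probe sets, 2 probe sets without a gene symbol and Tsc22d3. The unnamed probe sets had profiles nearer to Zbtb16 x_at than those of any named gene, and Zbtb16 at sat near Tsc22d3 in the GW4064 mice. Probe sets outside the authors' table were not compared.

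Likeness of profiles was measured as the root mean square distance over the 6 arrays after the vehicle mean of each probe set was taken off. The values were not scaled and kept the shift between the groups. A small distance therefore reflects differences of like size as well as a like order of mice. Between the Zbtb16 probe sets the distance was 0.456. The at probe set was closer to Tsc22d3, at 0.225, the smallest distance among the 6 pairs, and Fkbp5 and Tsc22d3 were farthest apart, at 0.854. Closer to Zbtb16 x_at than any named gene were 2 probe sets for which the authors' table gives no symbol, 1442025_a_at at 0.174 and 1442026_at at 0.205, singled out after their values were seen. Like Zbtb16 they are placed on chromosome 9 in that table, which assigns them to another transcript cluster. Probe set 1442025_a_at read 7.26, 6.44 and 7.34 in vehicle livers and then 8.48, 8.53 and 7.98 in those of GW4064 replicates 1, 2 and 3, with the low vehicle replicate 2 and the order of treated mice seen for Zbtb16 x_at. Which transcript it detects was not settled here.

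The order of the treated mice was then compared across the 3 genes. GW4064 replicate 1 lay 2.14 above the vehicle mean for Fkbp5, replicate 2 lay 1.59 and replicate 3 lay 0.93 above it. For Zbtb16 x_at the same mice lay 1.14, 1.40 and 0.73 above it. For Zbtb16 at they lay 0.51, 0.71 and 0.78 above, and for Tsc22d3 0.37, 0.56 and 0.85. Replicate 3, the treated mouse with the smallest Fkbp5 level, thus had the largest level of Tsc22d3, and replicate 1 the reverse. Mice did not keep 1 order across the 3 genes.

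As background to these orders, all probe sets were ranked in the same manner. The order of Fkbp5, with replicate 1 highest and replicate 3 lowest, held for 20.9% of all probe sets, for 37.3% of the 1517 with GW4064 higher without overlap, and for 34 of the 60 listed probe sets that were higher. It is also the order of the arrays by distance from the vehicle mean. The opposite order, of Tsc22d3 and Zbtb16 at, held for 19.6% of all and 8.57% of the 1517. Among the 60 listed probe sets that were higher, these 2 were the only ones in that order. From the lowest to the highest GW4064 mouse the levels behind it spanned 0.27 for Zbtb16 at and 0.48 for Tsc22d3. Their SDs in the GW4064 group, 0.14 and 0.24, exceeded those of 61.6% and 87.8% of probe sets, and the median SD was 0.114. The orders are descriptions from single arrays, since each mouse was measured once.

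**Figure D4:**
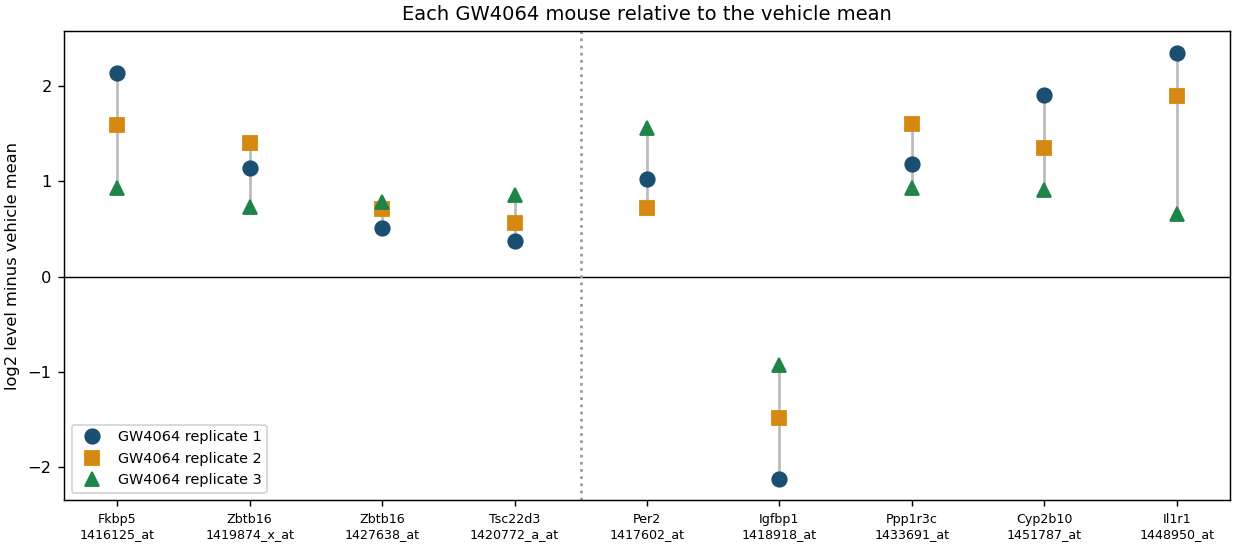
Log2 level minus the vehicle mean (y) of GW4064 replicates 1 (circles), 2 (squares) and 3 (triangles) for the 4 probe sets, left of the dotted line, and for 5 further glucocorticoid-induced genes. Replicate 1 was highest for Fkbp5 at 2.14 and lowest for Tsc22d3 at 0.37.

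The vehicle mice were alike in 1 respect across the 4 probe sets. Vehicle replicate 3 was the highest vehicle mouse for all of them, at 0.43, 0.33, 0.51 and 0.24 above the vehicle mean for Fkbp5, Zbtb16 x_at, Zbtb16 at and Tsc22d3. Over all probe sets it was the highest vehicle mouse for 32.8%. The lowest vehicle mouse was replicate 1 for Fkbp5, Zbtb16 at and Tsc22d3 and replicate 2 for Zbtb16 x_at. Replicates 1 and 2 were nearly level for Fkbp5, at 7.91 and 7.93, and for Zbtb16 at, at 5.71 each. Within the vehicle group the SD of each of the 4 probe sets, 0.35 to 0.48, exceeded that of at least 97.2% of probe sets, where the median was 0.111. The levels of the 3 genes in vehicle livers thus varied between mice more than those of most probe sets. Probe sets of like level were not compared separately. Among the other glucocorticoid-induced and hepatocyte genes with a named probe set, the vehicle SD was larger for Igfbp1 (0.61) and Ppp1r3c (0.53). It was 0.38 for Scp2 and Lcn2, 0.34 for Per2 and 0.31 for Il1r1 and Cyp8b1. Smaller values were those of Saa4 (0.18), Cyp2b10 (0.15), Csad (0.14) and Cyp4a12a (0.06). A spread of this size was thus not particular to the 3 genes.

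The dependence on single mice was examined by leaving out each in turn. Without GW4064 replicate 3, Fkbp5 differed by 1.86 (SE 0.23) with an adjusted p by limma of 0.0315, while that fit called 70 probe sets. This was the 1 instance in which a probe set of the 3 genes passed, and the mouse left out was the one nearest to vehicle for Fkbp5, so the adjusted p of 0.417 with all mice is the value reported. Without GW4064 replicate 1 the Fkbp5 difference was 1.26 (SE 0.25). Zbtb16 x_at ranged from 0.81 without vehicle replicate 2 to 1.27 without GW4064 replicate 3. For Tsc22d3 the lowest value was 0.40, or 1.32-fold, without vehicle replicate 1, its lowest mouse, and the highest was 0.72 without vehicle replicate 3. Zbtb16 at fell below 1.5-fold without vehicle replicate 1 or 2 (1.45-fold each) and Tsc22d3 without vehicle replicate 1 or GW4064 replicate 3 (1.38-fold).

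**Figure D5:**
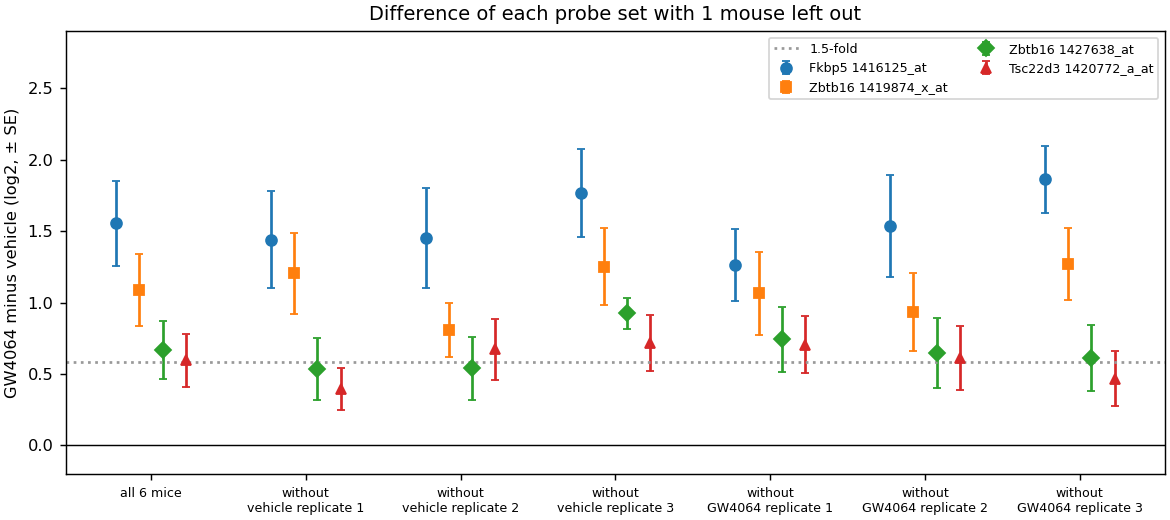
Difference GW4064 minus vehicle (y, log2, bars ± SE from limma) of each probe set with all 6 mice and without each mouse in turn (x). The dotted line marks 1.5-fold. Fkbp5 stayed between 1.26 and 1.86, and Tsc22d3 between 0.40 and 0.72.

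The 3 genes were set beside a list of 42 genes known to be induced by glucocorticoids. The list was drawn up with earlier results of these data known. Of these, 9 had a named probe set, the 3 genes and 6 others, and 33 could not be read. The median difference of the 9 genes was 1.24, where the median of all tested probe sets was -0.003. By limma 0 of the 9 passed the adjusted threshold. At 1.5-fold and an unadjusted p under 0.05 by limma, 8 were higher and 1 was lower. Of all 22626 probe sets, 143 were higher and 140 lower by the same rule. All 9 genes were drawn from the table selected on these arrays. Neither their median nor their count of 8 and 1 is therefore independent evidence of direction or size. None of the 22 genes of the receptor itself, its chaperones and the enzymes of its hormone, such as Nr3c1, Hsp90aa1 and Hsd11b1, had a named probe set.

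The single lower gene was Igfbp1, whose product binds insulin-like growth factors and which insulin holds down. It was at 11.68, 10.54 and 11.46 in vehicle and at 9.11, 9.75 and 10.31 in GW4064 replicates 1, 2 and 3, a difference of -1.51 (SE 0.35). Replicate 1, the mouse with the highest Fkbp5, thus had the lowest Igfbp1. The clock gene Per2, higher by 1.10 (SE 0.23), exceeded the vehicle mean by 1.03, 0.72 and 1.56 in replicates 1, 2 and 3 of the treated group, with replicate 3 highest as for Tsc22d3. Ppp1r3c, a glycogen-targeting phosphatase subunit, lay 1.19, 1.60 and 0.93 above it, in the order of Zbtb16 x_at. The drug-metabolizing Cyp2b10 lay 1.90, 1.35 and 0.91 above and the interleukin 1 receptor gene Il1r1 2.35, 1.89 and 0.66 above, both in the order of Fkbp5. Adjusted p-values by limma for these 5 genes were 0.417 to 0.463.

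Lcn2, which glucocorticoids and inflammatory cytokines induce and neutrophils store, was at 5.95, 6.21 and 5.46 in vehicle and at 13.67, 12.97 and 8.05 in GW4064 replicates 1, 2 and 3. It followed the order of Fkbp5 and was the only 1 of 11 neutrophil markers with a named probe set. The lists for macrophages, T cells, B cells, endothelial, stellate and bile duct cells had none. The 5 hepatocyte genes with lower means in GW4064 livers were Csad at -2.75 (SE 0.29), Cyp8b1 at -2.42 (SE 0.51), Igfbp1 at -1.51 (SE 0.35), Scp2 at -0.66 (SE 0.19) and Cyp4a12a at -0.64 (SE 0.13), opposite in direction to the 3 genes. By limma 0 of the 5 passed the adjusted threshold. All 5 were at least 1.5-fold lower with an unadjusted p under 0.05 by limma, against 140 of all 22626 probe sets. The 5 were named through the table selected on the same arrays, so this count is not independent evidence. The part of hepatocytes and of other cell types in the levels of Fkbp5, Zbtb16 and Tsc22d3 was not tested.

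The genes with the profiles most like each member were sought among the other 86 named genes, each at its probe set of highest mean. For Fkbp5 these were Cyp2b10 at a distance of 0.303, the SHP gene Nr0b2, a corepressor and classic FXR target, at 0.308 and the fibronectin gene Fn1 at 0.309. For Zbtb16 x_at they were Saa4, a serum amyloid gene, at 0.298, Pecr, a peroxisomal reductase gene, at 0.329 and Derl3, which acts in the disposal of misfolded proteins, at 0.334. For Tsc22d3 they were Efhd2 at 0.256, Luc7l at 0.269 and Rasgrp2 at 0.288. With Zbtb16 read at x_at and 3 neighbours taken per gene, no neighbour was shared. Zbtb16 at did not enter this search, and at 0.225 it lay closer to Tsc22d3 than Efhd2 did. All 86 genes came from the selected table, and the distances rest on 6 arrays that all of them share.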

How the data were processed

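Livers of 6 mice were profiled on 1 Affymetrix array each. Log2 expression levels per probe set were deposited by the authors, who name Affymetrix Power Tools, and had been normalized between arrays. How probe sets were summarised is not given in the sources used here. GEO's labels state the Mouse Gene 1.0 ST design, but the identifiers match Mouse430A_2, which the header of the authors' table names, and were read as such. That table of 110 probe sets was read for its annotation (symbol, chromosome and transcript cluster, with 1 symbol for 99), and its columns of folds and directions were not used.

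Of 22690 probe sets, 64 controls were set aside. GW4064 and vehicle, taken from the sample titles, were compared with lmFit and eBayes of limma 3.58.1 (R 4.3.3), two-sided, with group alone in the model, Benjamini-Hochberg adjustment over 22626 probe sets and no filter. The fit was tested on simulated data. Probe sets of a gene were kept apart for the 3 genes, and other genes were read at the probe set of highest mean. The rule for named genes took the 3 genes, the list members with a symbol, and the 3 nearest profiles per gene. The members and lists were chosen with earlier results of these data known. Alternatives were other normalizations, a filter on dim probe sets, the methods' t-test, another prior, array weights, the replicate block and leaving out each mouse. Promoter windows were those of RefSeq, GRCm38.p6. The number of arrays limits the precision.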

Additional observations from a re-analysis of the deposited data

How the results depend on the processing

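Across 13 alternatives each, the 4 probe sets stayed higher in GW4064 livers, and the adjusted p of 0.05 was passed only by Fkbp5 without GW4064 replicate 3. Leaving out 1 mouse gave differences of 1.26 to 1.86 for Fkbp5, 0.81 to 1.27 for Zbtb16 x_at, 0.54 to 0.92 for Zbtb16 at and 0.40 to 0.72 for Tsc22d3, and a change of the Zbtb16 gap of 0.27 to 0.67. Over all 13 alternatives the lowest adjusted p was 0.0315, 0.121, 0.355 and 0.317 in that order, and the highest 0.779, 0.794, 0.840 and 0.794. For the 3 probe sets without overlap, leaving out or weighting mice could not have turned a direction. Both 1.5-fold and an unadjusted p under 0.05 were kept in 13, 13, 10 and 10 of the alternatives. Over the whole array, 0 probe sets passed the adjusted threshold, and 0 to 70 did so without 1 mouse (70 without GW4064 replicate 3). The count at 1.5-fold and an unadjusted p under 0.05 was 283, 158 (without GW4064 replicate 1) to 573 (without GW4064 replicate 3) when 1 mouse was left out, and 97 by the methods' t-test, which takes the spread from each probe set alone. With the replicate block these counts were 0 and 304, and the adjusted p-values of the 4 probe sets were 0.346, 0.392, 0.355 and 0.317. The titles name no pairing, and the deviations of same-numbered mice correlated at -0.0019, 0.053 and -0.034 over probe sets. For Tsc22d3 and Zbtb16 at, however, levels rose with replicate number in both groups. With the block their SE by limma was 0.10 and 0.14, against 0.19 and 0.20 without it. For Fkbp5 and Zbtb16 x_at it was 0.32 and 0.27 with the block, against 0.30 and 0.25. With 3 mice a group, the exact test cannot go below 0.1.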
